A study of Mus musculus with 64 samples.

Results

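The genes described here are 35 genes of DNA replication and S phase, chosen by name from textbook function and found by symbol in the table of normalised counts, which holds 26286 genes. All 35 were measured, and all 35 passed the filter on low values (a mean normalised count of at least 10) in each comparison. They are the 6 subunits of the MCM helicase ring (Mcm2 to Mcm7), 4 factors that mark and license origins (Orc1, Orc6, Cdc6, Cdt1), 6 factors that activate the helicase (Mcm10, Cdc45, Gins1 to Gins4), the sliding clamp Pcna with 4 subunits of its loader (Rfc2 to Rfc5), 4 polymerase and primase subunits (Pola1, Prim1, Pold1, Pole), 4 enzymes of nucleotide supply (Rrm1, Rrm2, Tyms, Tk1), 3 regulators of S phase entry (Ccne1, Ccne2, E2f1) and 3 factors that restore chromatin and DNA methylation behind the fork (Chaf1a, Chaf1b, Uhrf1).

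Cells license their origins before S phase by loading the MCM ring with the help of the origin recognition complex, Cdc6 and Cdt1. At S phase entry, kinases with cyclin E and others help to turn the ring, together with Cdc45 and the GINS complex, into an active helicase, and polymerases, clamp and nucleotide enzymes then copy the DNA. Many of these genes are transcribed together by E2F factors as cells leave G1. Early erythroid cells divide fast while they mature, and in mice the spleen takes up red cell production under anemic stress.

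RNA was sequenced from whole tissue and from 2 sorted populations, in both bone marrow and spleen. There were 64 libraries, made from 18 mice, and 63 could be assigned to a group. Megakaryocyte-erythroid progenitors (MEP) give rise to red cells and platelets. The second population, SMP, was sorted as Lin-, Sca-, Kit+, CD34+ and CD16/32 low, and the labels call it stem and myeloid progenitors. Mutant mice were CbyJ.Cby-Rasa3(scat)/Llp scat/scat, homozygous for the scat mutation of Rasa3, which encodes a protein that switches off Ras and Rap1. Controls were +/+ mice of the same strain (WT). The labels record no treatment with an agent. Crisis mice (3 mice, 18 libraries) were 23 to 28 days old and recorded as critical, and young WT mice (7 mice, 18 libraries) had the same range of ages. Remission mice (5 mice, 17 libraries) were 32 to 58 days old and recorded in partial remission, and older WT mice (3 mice, 10 libraries) were 32 to 58 days old. Each group has 3 libraries per population, except for remission in spleen MEP (2) and older WT (2, and 1 in whole spleen and in spleen SMP). The same 3 crisis mice gave all 6 populations, so results in different populations are not independent. The mutation is present in all tissues, so a change in a sorted population need not arise in those cells.

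Totals ran from 33.6 to 107.62 M normalised counts per library (median 50.6 M). In young WT bone marrow 16 of 16 erythroid markers were higher in MEP than in SMP and 10 of 10 stem and early progenitor markers were lower. The summed megakaryocyte markers, however, were lower in MEP (1103 to 1909) than in SMP (8247 to 9175). The B cell sum was 3369 to 23099 in MEP and 1824 to 3856 in SMP. Rasa3 RNA is no check of the genotype, since scat changes the protein's sequence. Its level was 12781 to 13447 in young WT whole spleen and 2136 to 3355 in crisis. Mouse 2726 (recorded as remission, 58 days) stood apart from its group in whole spleen: the median relative log2 level of the 35 genes was -1.93 in mouse 2726 and 0.69 and 0.76 in the other 2 remission libraries. The whole spleen library of mouse 27265 (58 days) is labelled scat/scat while the mouse's other libraries are labelled WT, so it was left unassigned. Rasa3 was at 22405 in whole spleen of mouse 2726, at 4433 and 4849 in the other 2 remission mice, at 16772 in older WT and at 7054 in the unassigned library. Whether the labels of mice 2726 and 27265 were exchanged was not tested, and the meaning of the remission and older WT values they enter, in bone marrow and spleen MEP and in bone marrow SMP too, depends on it. Remission results are therefore given with and without both mice, except against crisis in whole bone marrow and in both MEP populations.

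RefSeq promoter windows (GRCm38.p6, 250 bases before to 50 bases after the transcription start) were at hand for 28 of the 35 genes, 30 windows in all, and not for Ccne2, Gins1, Gins2, Gins4, Mcm4, Pole and Rfc2. They were searched on both strands for 4 octamers of the E2F type, TTTCCCGC, TTTGGCGC, TTTCGCGC and TTTGCCGC, of which matches on opposite strands can overlap. A match was present in 12 of the 30 windows (40.0%), of 12 genes, against 744 of all 32851 mouse windows (2.26%) and 2.44% of the 30251 windows with at least the lowest GC content among the 30. The windows kept by that cut had a median GC content of 54.0%, against 60.7% in the 30 windows. They are thus not matched for GC content. Of 60 windows of 47 other replication genes 33.3% held a match, and of 23 windows of mitosis genes 4.35%. The box CCAAT was present in 66.7% of the 30 windows, against 37.4% of all windows and 91.3% of those of mitosis genes. A match describes the letters only.

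Windows of 5 genes are shown because the results below turn on them, each 5′ to 3′ on the gene's strand in lower case with the octamers in capitals. Mcm6 (chr1:128359656-128359955, minus strand) has 3 matches, 2 of them overlapping, and Mcm5 (chr8:75109259-75109558, plus strand) has 2 overlapping ones. Orc1 (chr4:108579204-108579503, plus strand) has 1 match centred 23 bases before the start. Pold1 (chr7:44548766-44549065, minus strand), which did not follow the others in spleen, has 1 match centred 43 bases after the start. Ccne1 (chr7:38107441-38107740, minus strand), with the widest range of levels between sorted populations, has none of the 4 octamers.
Mcm6: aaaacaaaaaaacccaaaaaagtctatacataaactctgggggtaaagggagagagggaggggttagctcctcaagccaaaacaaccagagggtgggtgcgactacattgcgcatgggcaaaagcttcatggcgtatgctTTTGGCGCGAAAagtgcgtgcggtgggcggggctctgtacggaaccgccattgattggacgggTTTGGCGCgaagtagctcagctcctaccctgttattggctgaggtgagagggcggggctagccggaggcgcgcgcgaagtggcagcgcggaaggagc
Mcm5: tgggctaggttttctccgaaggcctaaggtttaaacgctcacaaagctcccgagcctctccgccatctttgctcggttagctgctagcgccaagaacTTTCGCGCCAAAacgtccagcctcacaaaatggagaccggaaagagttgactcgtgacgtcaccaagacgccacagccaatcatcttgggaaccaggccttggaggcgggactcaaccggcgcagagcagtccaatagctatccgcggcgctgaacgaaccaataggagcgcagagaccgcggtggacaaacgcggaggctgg
Orc1: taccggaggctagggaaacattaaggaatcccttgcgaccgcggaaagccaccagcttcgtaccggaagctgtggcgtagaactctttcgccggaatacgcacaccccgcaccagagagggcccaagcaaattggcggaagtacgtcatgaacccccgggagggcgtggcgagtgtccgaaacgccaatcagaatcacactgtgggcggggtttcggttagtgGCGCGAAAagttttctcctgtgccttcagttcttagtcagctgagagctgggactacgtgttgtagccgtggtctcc
Pold1: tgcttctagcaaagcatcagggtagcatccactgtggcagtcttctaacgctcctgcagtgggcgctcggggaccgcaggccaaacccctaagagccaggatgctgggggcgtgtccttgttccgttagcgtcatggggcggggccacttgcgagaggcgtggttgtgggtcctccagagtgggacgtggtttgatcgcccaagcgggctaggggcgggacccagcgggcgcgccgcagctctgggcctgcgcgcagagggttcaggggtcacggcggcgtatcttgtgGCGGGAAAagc
Ccne1: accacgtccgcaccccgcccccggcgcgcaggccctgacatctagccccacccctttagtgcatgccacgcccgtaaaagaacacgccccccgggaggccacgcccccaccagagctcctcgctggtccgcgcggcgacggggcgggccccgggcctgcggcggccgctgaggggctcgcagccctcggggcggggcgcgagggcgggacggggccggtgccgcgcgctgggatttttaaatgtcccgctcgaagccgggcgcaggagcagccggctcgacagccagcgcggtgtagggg

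In young WT mice the replication genes were highest in MEP. The mean level of 34 of the 35 genes was highest in spleen MEP, and that of Rfc5 in bone marrow MEP. The lowest mean was in spleen SMP for 21 genes, in whole spleen for 8 and in bone marrow SMP for 6. Per kilobase of transcript, Pcna was the most abundant of the 35 in all 6 young WT populations, from 11054 normalised counts per kilobase in spleen SMP to 29645 in spleen MEP. Gins3 was the least abundant in 5 of these populations (310 in spleen SMP, 653 in spleen MEP), and Ccne1 in bone marrow SMP (304).

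**Figure D1:**
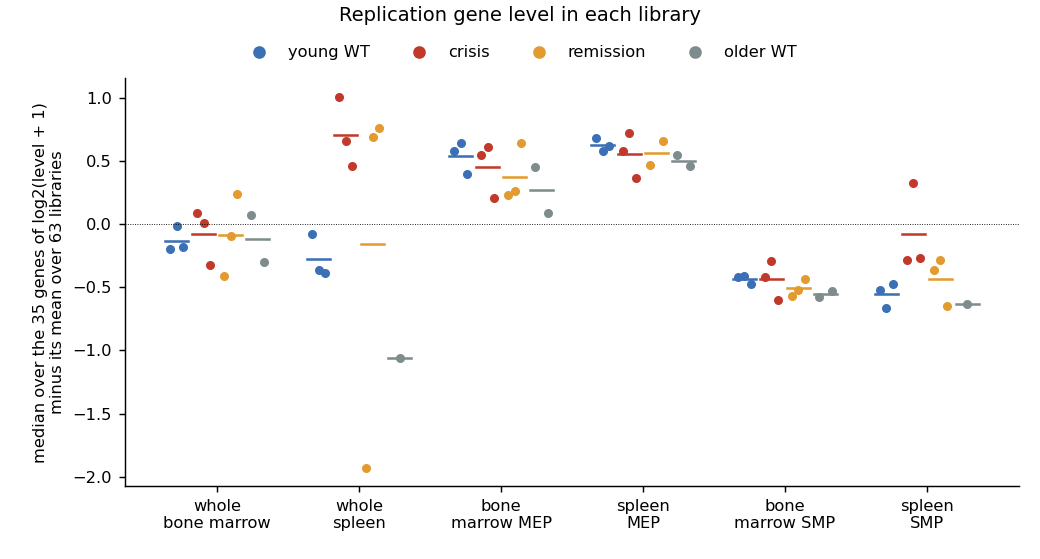
Median over the 35 genes in each of the 63 assigned libraries, as log2(level + 1) minus each gene's mean over those libraries (vertical axis), by population (horizontal axis) and state (colour). Points are libraries, short lines are group means. Within each organ every MEP library lies above every SMP library, of which a crisis library of spleen SMP is the highest at 0.33, and in whole spleen the 3 crisis libraries (0.46 to 1.01) lie above the 3 young WT libraries (-0.39 to -0.08).

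MEP were compared with SMP in a limma fit of all 36 crisis and young WT libraries with the mouse as a random block. In young WT bone marrow 31 of the 35 genes were higher in MEP at an adjusted p under 0.05 (29.1% of all genes were), with a median log2 difference of 0.97 (all genes -0.12). In young WT spleen 34 were higher (28.8% of all genes), with a median of 1.21 (all genes -0.16). The young WT mice that gave spleen SMP were other mice than those that gave spleen MEP, so population and mouse cannot be told apart in that comparison. Without rescaling the counts were 24 in bone marrow, and 10 higher and 1 lower in spleen, where the median of all genes moved to -0.94 and that of the 35 to 0.40. The gene that was not called in either organ was Rfc2, a clamp loader subunit (0.03, adjusted p = 0.89 in bone marrow and 0.17, adjusted p = 0.362 in spleen). Pola1, Pold1 and Pole, which encode the large subunits of the replicative polymerases, were not called in bone marrow either (0.18 to 0.28).

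Ccne1, which encodes cyclin E1, showed the widest gap. Its levels in young WT bone marrow were 550, 619 and 657 in SMP and 13127, 13451 and 12136 in MEP, a log2 difference of 4.41 ± 0.29 (SE, adjusted p = 1.92e-12). In spleen they were 784, 908 and 963 in SMP and 14165, 12391 and 16557 in MEP (4.02 ± 0.33, adjusted p = 3.85e-10). The groups are far apart in both organs. Ccne2, the second cyclin E gene, differed by 1.86 in bone marrow and 2.60 in spleen.

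Rrm2, the regulated subunit of ribonucleotide reductase, which makes deoxyribonucleotides, came next. It stood at 4506, 4504 and 4654 in bone marrow SMP and at 27383, 26716 and 23960 in MEP (log2 difference 2.51, adjusted p = 2.29e-10), with 2.73 in spleen. For its partner subunit Rrm1 the difference was 1.22 in bone marrow. Among the licensing factors Cdc6 differed by 2.07 and Orc1 by 1.95 in bone marrow, and by 2.25 and 2.16 in spleen. The 6 helicase subunits differed by 0.58 (Mcm6) to 1.06 (Mcm2) in bone marrow.

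Of 58 other replication genes, a textbook list with members such as Recql4 and Orc2, 44 were higher and 2 lower in MEP of young WT bone marrow, and 51 were higher and 1 lower in spleen. Pold4, the small subunit of polymerase delta, was lower in both (-1.14 and -1.49). Of 25 mitosis genes 21 were higher in bone marrow and 24 in spleen (medians 0.76 and 1.23).

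In crisis the same comparison called 32 genes higher in MEP in bone marrow (28.8% of all genes, median 0.93) and 31 in spleen (17.8% of all genes, median 0.66). Without rescaling these counts were 18 and 6, the latter Orc1, Cdc6, Rrm2, Tk1, Ccne1 and Ccne2. For Ccne1 the log2 difference was 2.97 in bone marrow and 1.96 in spleen, and for Rrm2 2.16 and 1.4. Whether the gap between MEP and SMP differed between crisis and young WT was not tested as such.

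**Figure D2:**
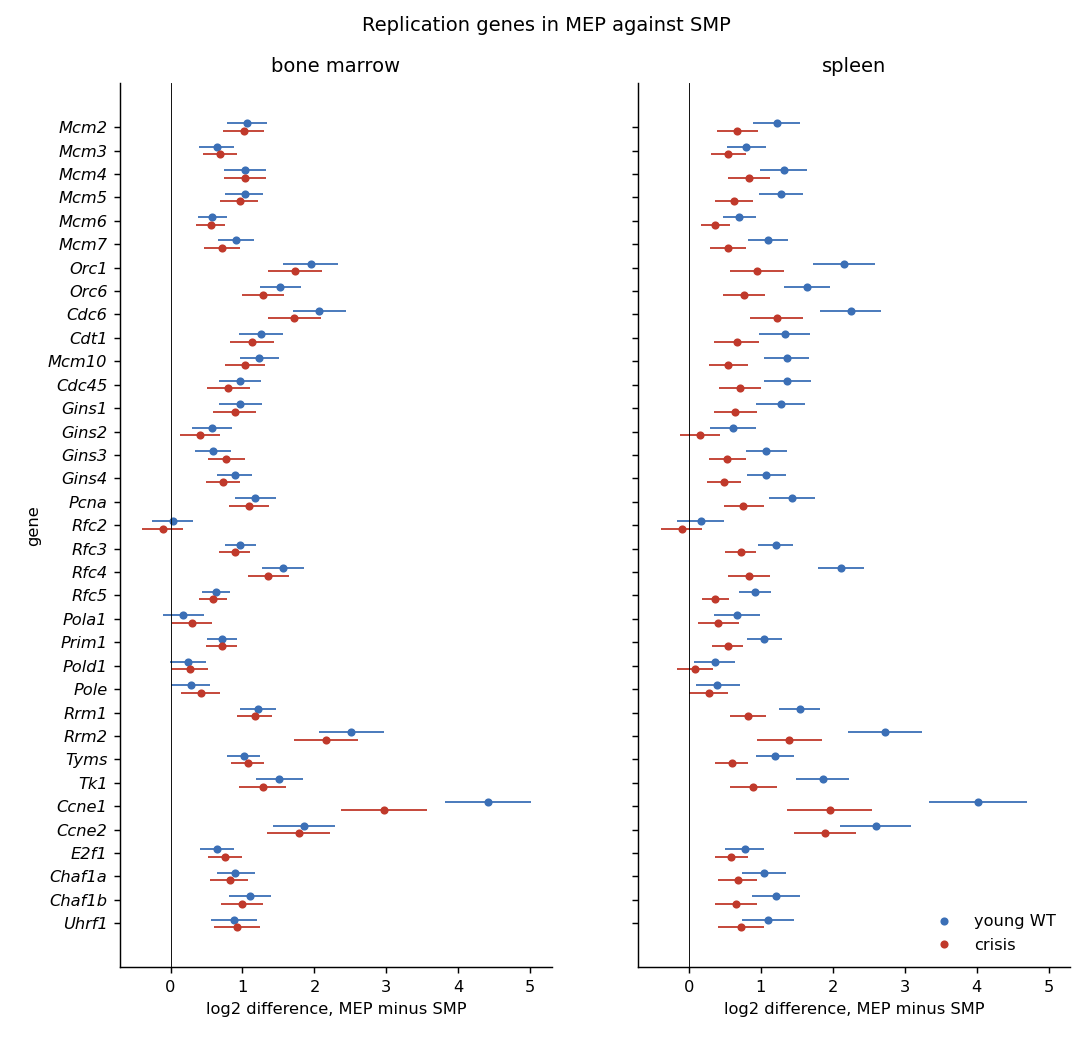
Log2 difference of MEP minus SMP (horizontal axis) for each of the 35 genes (vertical axis) in bone marrow and spleen, young WT and crisis. Points are limma estimates, bars their 95% confidence intervals. Ccne1 lies farthest right in young WT (4.41 in bone marrow, 4.02 in spleen) and Rfc2 lies at 0.03 and 0.17.

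In whole spleen nearly all of the replication genes were higher in crisis. With limma on the 3 crisis and 3 young WT libraries, 33 of the 35 were higher (22.3% of all genes were called higher) and none was lower, with a median log2 difference of 1.02 (all genes -0.05). In 33 genes every crisis library lay above every young WT library, as in 27.6% of all genes. The 2 exceptions were Rfc2 (0.15, 95% interval -0.41 to 0.71) and Pold1 (0.01, -0.37 to 0.38).

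All 6 MCM subunits rose, by 0.89 (Mcm4) to 1.09 (Mcm6). Mcm6 was at 22502, 18087 and 16565 in young WT and at 45819, 39889 and 35013 in crisis (1.09 ± 0.18, adjusted p = 0.00123). All 4 licensing factors rose as well. Orc6, a subunit of the origin recognition complex, went from 2752, 2488 and 2478 to 6868, 6192 and 6271 (1.33 ± 0.13, adjusted p = 7.26e-05), the tightest groups among the genes described. Orc1, the subunit that joins the complex in G1, stood at 3965, 3054 and 2356 against 8399, 7918 and 6325 (1.30).

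All 6 activators of the helicase rose, by 0.65 (Gins2) to 1.23 (Gins1). Gins1 levels were 1251, 1038 and 1286 in young WT and 3149, 2628 and 2572 in crisis (adjusted p = 0.00033). Of the clamp and its loader, Pcna, Rfc3, Rfc4 and Rfc5 rose and Rfc2 did not pass. Rfc4 was at 2648, 2451 and 2414 in young WT and at 6731, 5988 and 4986 in crisis (1.24 ± 0.15, adjusted p = 0.000231), whereas Rfc2 was at 5633, 4641 and 5159 against 8609, 5099 and 4129, with overlapping groups.

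Among polymerases, Pole (catalytic subunit of polymerase epsilon) rose from 6679, 4773 and 3712 to 11677, 9420 and 9968 (1.08, adjusted p = 0.00384), and Pola1 and Prim1 rose by 0.93 and 1.07. Pold1, the catalytic subunit of polymerase delta, was at 8367, 6841 and 7023 in young WT and at 8990, 6955 and 6402 in crisis. These values overlap throughout. All 4 genes of nucleotide supply rose. Rrm2 went from 32978, 28518 and 25116 to 89459, 71589 and 51594 (1.28 ± 0.22, adjusted p = 0.00165), and Rrm1, Tyms (thymidylate synthase) and Tk1 (thymidine kinase) by 1.03 to 1.20.

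The 3 regulators of S phase entry rose, and Ccne2 had the largest change of the 35, from 4085, 4882 and 3217 to 14509, 12562 and 8281 (1.53 ± 0.23, adjusted p = 0.000909). Ccne1 rose by 1.07 and E2f1 by 0.81. The factors behind the fork rose too. Uhrf1, which guides maintenance DNA methylation, was at 22767, 17765 and 15905 in young WT and at 46280, 40927 and 32293 in crisis (1.09, adjusted p = 0.00209), with Chaf1a and Chaf1b of the histone chaperone CAF-1 at 0.97 and 1.04. Crisis replicate 3 had the lowest level of the 3 crisis libraries in most genes named here, and it still lay above the highest young WT library in the 33 genes.

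Other genes of the cell cycle moved alongside. Of the 58 other replication genes 50 were higher and 2 lower (median 0.87), among them Atad5, which unloads the clamp (1.5), and E2f2 (1.48). Pold4 was lower (-1.96), as was Rrm2b, a ribonucleotide reductase subunit used outside S phase. All 25 mitosis genes were higher (median 1.13), with Ccnb1, the mitotic cyclin B1, at 1.53.

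In whole tissue, more cells of a type and more RNA per cell cannot be told apart, and the makeup of the spleen moved together with these genes. Erythroid markers were higher in 14 of 16 genes (median 1.09), and their summed level was 6720723 to 7135375 in young WT and 8436565 to 16800099 in crisis. All 8 B cell markers and all 8 T and NK cell markers were lower (medians -3.65 and -3.30). Their summed levels were 96543 to 117732 and 19069 to 28208 in young WT, and 5619 to 14265 and 1356 to 3212 in crisis. No marker of these lists was at 0 in all libraries of a whole spleen group. The part of these shifts in the replication genes was not tested. The count of 33 was 31 to 33 with any 1 library left out. A limma fit that took its spread from all groups of whole spleen called 0, and 33 when mice 2726 and 27265 were left out of it, a choice made after the data were seen.

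**Figure D3:**
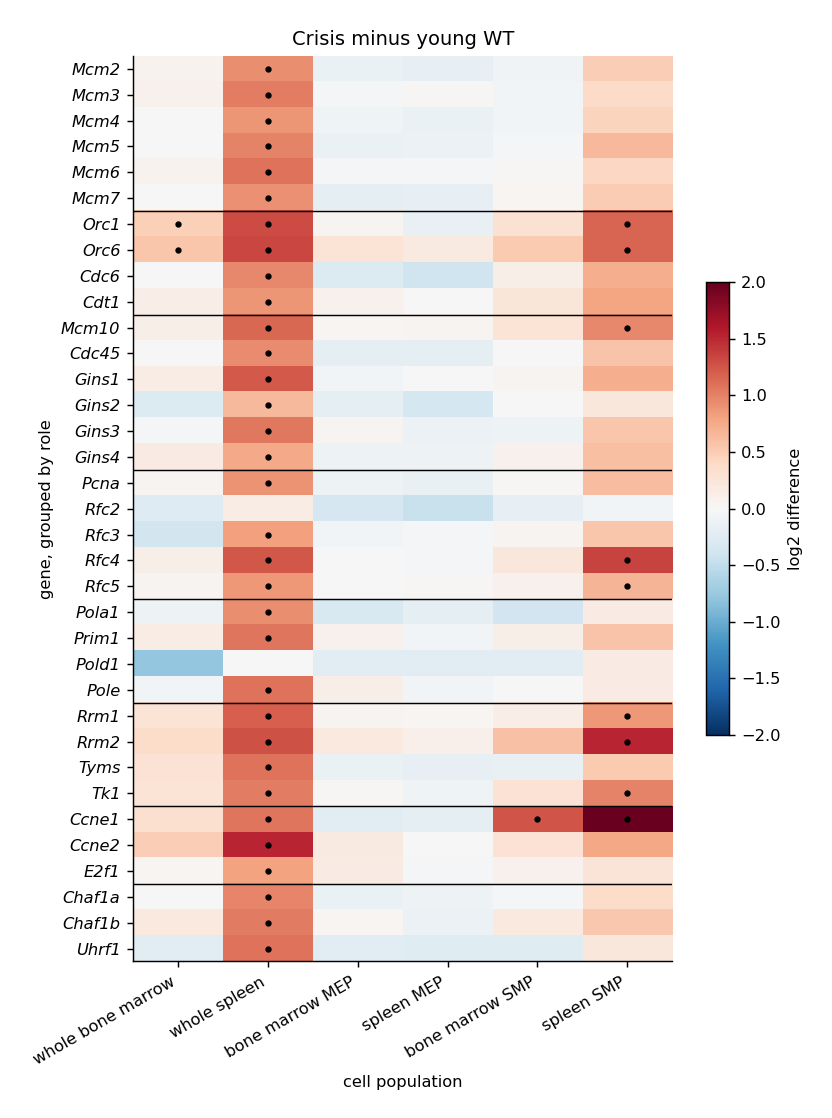
Log2 difference of crisis minus young WT (colour, blue lower and red higher, from -2 to 2) for the 35 genes, grouped by role (rows), in 6 populations (columns). Dots mark genes with an adjusted p under 0.05: 33 in whole spleen, 9 in spleen SMP, 2 in whole bone marrow, 1 in bone marrow SMP and 0 in both MEP populations.

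In whole bone marrow of the same crisis mice few of the genes passed the test. They were Orc1 (0.48, adjusted p = 0.0336) and Orc6 (0.55, adjusted p = 0.0489), against 4.65% of all genes called higher, and the median of the 35 was 0.07 (all genes 0.01). Orc1 was at 2190, 2444 and 2257 in young WT and at 3005, 3508 and 3265 in crisis. In 6 genes every crisis library lay above every young WT library, as in 15.6% of all genes. The opposite sign was largest for Pold1, at 11118, 11014 and 9278 in young WT and 8212, 6025 and 4796 in crisis (-0.78, adjusted p = 0.0517). The Pold1 groups do not overlap, and Pold1 was called lower in 9 of 13 alternatives (adjusted p from 0.000481 to 0.0474 in those 9). In the limma fit of all groups it was the only gene called. Orc6 missed the threshold in 7 of 13 alternatives, and no call was left for it with any 1 library removed (adjusted p from 0.0568 to 0.169). Without crisis replicate 1 the calls were Orc1 (0.51), Pold1 (-1.01) and Rfc3 (-0.45), and without any other single library there were none.

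Of the 58 other replication genes 2 were higher and 2 lower in whole bone marrow, and of the 25 mitosis genes 2 were higher. Erythroid markers were higher there as well, in 10 of 16 genes (median 0.93). Their summed level was 2221068 to 4128146 in young WT and 4881062 to 6676266 in crisis. The B cell sum was 97988 to 120321 in young WT and 5371 to 55200 in crisis.

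The crisis effect itself differed between the organs in whole tissue. In the fit of 36 libraries 33 of the 35 genes had a larger change in spleen than in bone marrow (12.1% of all genes did), by a median log2 of 0.86 (all genes 0.00). Without rescaling the median was 0.89 and only Uhrf1 passed (adjusted p = 0.0373). Uhrf1 had the largest difference (1.26 ± 0.23, adjusted p = 0.000238), followed by Rfc3 (1.14). For Pold1 the difference of 0.75 (adjusted p = 0.00297) came with no change in spleen past the test, and in this same fit Pold1 was lower in bone marrow (-0.75, adjusted p = 0.000481). Rfc2 (0.36, adjusted p = 0.188) and Ccne1 (0.71, adjusted p = 0.216) did not pass. Spleen exceeded bone marrow in 33 genes in crisis (27.9% of all genes). In young WT none was higher and 5 of the 35 were lower in spleen, near the share of all genes (13.2% were lower). They were Gins2, Gins3, Rfc3, Pold1 and Uhrf1, by -0.39 to -0.51. This count was 2 without young WT replicate 2 of either tissue and 3 without replicate 3 of bone marrow.

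MEP showed no change past the test in either organ. In bone marrow MEP 0 of the 35 genes were called by limma (0.197% of all genes), with 0 at an unadjusted p under 0.05 and a median of -0.05 (all genes -0.01). In spleen MEP 0 were called (1.17% of all genes), with 3 at an unadjusted p under 0.05 and a median of -0.10. The median half-width of the 95% interval was 0.32 in bone marrow and 0.27 in spleen. Rrm2, for example, was at 27383, 26716 and 23960 in young WT and at 30632, 38930 and 21685 in crisis in bone marrow (0.20, interval -0.25 to 0.65). Ccne1 stood at 14165, 12391 and 16557 against 14888, 15461 and 8363 in spleen (-0.20, -0.71 to 0.30). In both examples the groups overlap. Without crisis replicate 1 a single gene passed in each organ, Pold1 in bone marrow (-0.38) and Rfc2 in spleen (-0.55).

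The difference of the crisis effect between the organs was called in 0 genes in MEP (0.00628% of all genes), with 0 at an unadjusted p under 0.05 and estimates from -0.19 (Orc1) to 0.13 (Pola1). Spleen and bone marrow MEP differed in 0 genes in young WT (1.71% of all genes) and in 0 in crisis (7.28%), with 0 at an unadjusted p under 0.05 in both. Of the other replication genes only Pold2, a subunit of polymerase delta, was called in crisis in spleen MEP (0.59). Of the mitosis genes none was called in either organ, with 1 in bone marrow and 4 in spleen at an unadjusted p under 0.05.

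In SMP the changes were uneven between genes and libraries. In spleen SMP 9 of the 35 genes were higher in crisis (12.3% of all genes were), none was lower, and the median was 0.57 (all genes -0.04). Every crisis library lay above every young WT library in 22 genes, as in 21.7% of all genes. The 9 genes were Orc1, Orc6, Mcm10, Rfc4, Rfc5, Rrm1, Rrm2, Tk1 and Ccne1. No MCM subunit passed (0.39 to 0.65), nor did any polymerase (0.16 to 0.57) or chromatin factor (0.23 to 0.54).

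Ccne1 had the largest change, from 784, 908 and 963 in young WT to 1745, 7825 and 2488 in crisis (1.97 ± 0.48, adjusted p = 0.0284). Rrm2 went from 4444, 4243 and 4888 to 8145, 24531 and 9113 (1.53 ± 0.38, adjusted p = 0.0298). Crisis replicate 2 (mouse 2629) stood far above the other 2 crisis libraries in both genes, and those 2 were still above young WT.

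Rfc4 was at 1540, 1349 and 1389 in young WT and at 2624, 4936 and 2993 in crisis (1.35 ± 0.26, adjusted p = 0.0277). Mcm10, which helps to activate the helicase, was at 3916, 3618 and 5056 against 6387, 10230 and 6544 (0.96, adjusted p = 0.0299). Orc1 was at 1281, 1087 and 1368 against 1825, 4414 and 2152 (1.16, adjusted p = 0.0358). In these 3 genes, too, crisis replicate 2 was the highest library and no crisis library fell within the young WT range.

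**Figure D4:**
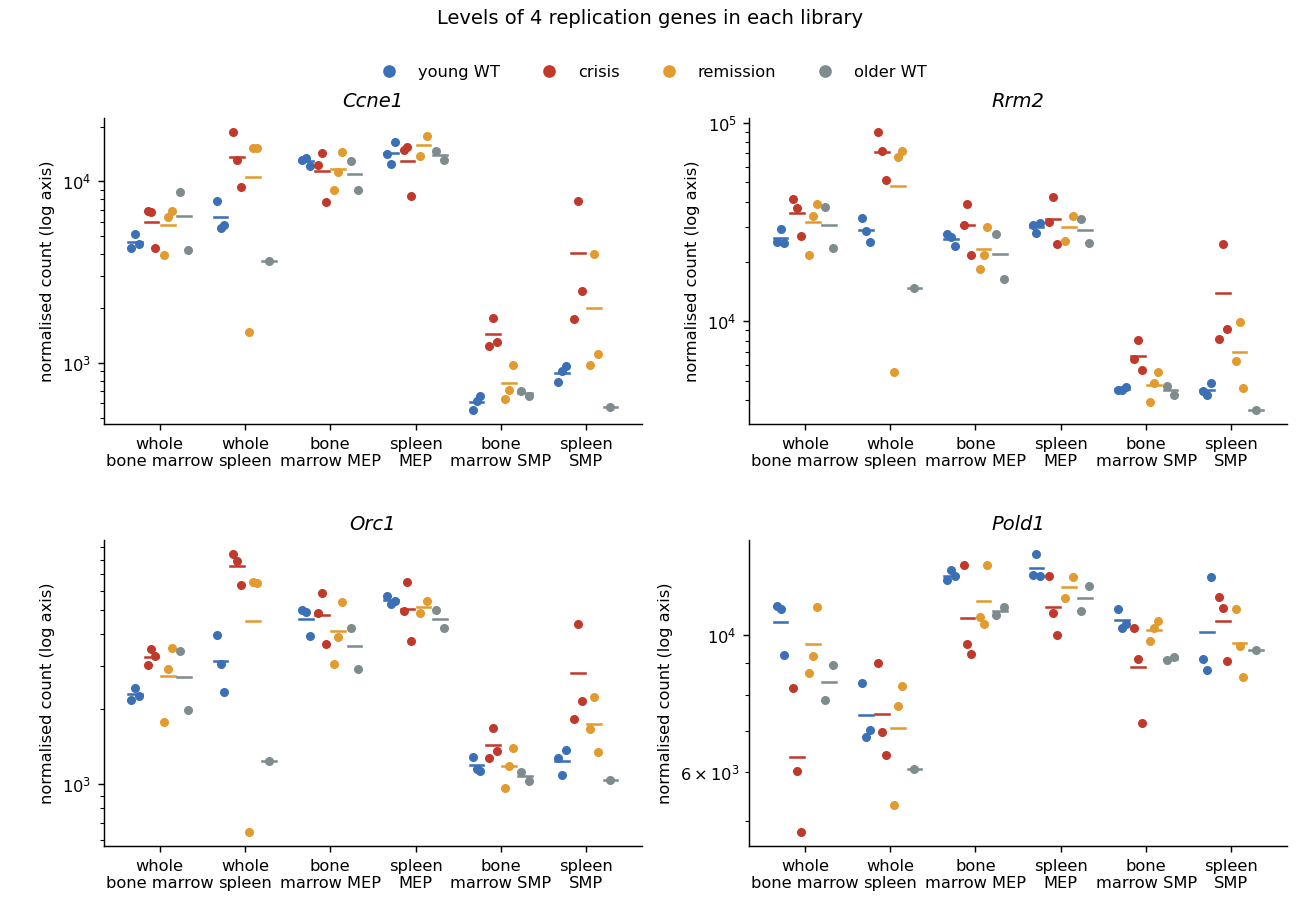
Normalised counts (vertical axes, log scale) of Ccne1, Rrm2, Orc1 and Pold1 by population (horizontal axes) and state (colour). Points are libraries, short lines are group means. In SMP Ccne1 lies between 550 and 963 in young WT and between 1240 and 7825 in crisis, while Pold1 in whole bone marrow lies lower in crisis (4796 to 8212) than in young WT (9278 to 11118).

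The count in spleen SMP depended on the libraries and on the fit. It was 0 without young WT replicate 1, 2 or 3 or without crisis replicate 3, 9 without crisis replicate 2 and 16 without crisis replicate 1. With the spread taken from more libraries it was 18 (all groups of spleen SMP) or 25 (all 36 libraries with the mouse as a block). Without rescaling it was 2, where the median of all genes moved to -0.55 and that of the 35 to 0.06. The share of all genes called in these other fits is not given here, so these counts are not set against it. Of the 58 other replication genes 25 were higher, such as Orc5 (1.48) and Orc2 (1.46), and of the 25 mitosis genes 15, such as Ccnb1 (1.47). Erythroid markers were higher in 12 of 16 genes (summed level 104252 to 219280 in young WT, 286228 to 665638 in crisis) and stem and early progenitor markers lower in 9 of 10 (105461 to 124294 and 26524 to 72360). The summed myeloid markers were at 37764 to 63312 in young WT and 11562 to 36987 in crisis. The T and NK cell sum was 2197 to 3078 and 494 to 1884, and the macrophage sum 1879 to 2643 and 714 to 1347. The B cell and megakaryocyte sums overlapped between these groups. Their part in the replication genes was not tested.

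In bone marrow SMP 1 of the 35 genes was higher, Ccne1 (1.26% of all genes), and the median was 0.06. Ccne1 was at 550, 619 and 657 in young WT and at 1240, 1770 and 1314 in crisis (1.26 ± 0.16, adjusted p = 0.0149). The fit of 36 libraries with the mouse as a block ended this call (1.23, adjusted p = 0.0521), as did limma with no trend and no robust step (1.26, adjusted p = 0.0633). In 7 genes every crisis library lay above every young WT library, as in 13.1% of all genes. The next in size were Rrm2 (0.58, adjusted p = 0.0535) and Orc6 (0.53, adjusted p = 0.0803). Without crisis replicate 1 Cdt1, Mcm10, Orc6 and Rrm2 passed beside Ccne1 (5 genes), and without crisis replicate 3 Rrm2 did (2 genes). No gene passed without crisis replicate 2 or without young WT replicate 1 or 3. Of the other replication genes 0 were called, with 8 at an unadjusted p under 0.05, and of the mitosis genes Cenpf was lower (-0.68). Erythroid markers were higher in 12 of 16 genes here as well (43431 to 63092 summed in young WT, 113966 to 189683 in crisis). The summed level of the stem and early progenitor markers was 125963 to 141018 in young WT and 93770 to 106854 in crisis, and the T and NK cell sum was 1913 to 2298 and 812 to 1506. The macrophage sum was 1652 to 1912 and 1275 to 1566, while the myeloid, B cell and megakaryocyte sums overlapped between these groups. Their part in the level of Ccne1 was not tested.

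Between the organs, the crisis effect in SMP was larger in spleen for 4 genes (4.43% of all genes): Rfc4 (1.07, adjusted p = 0.0205), Rrm1 (0.67), Tyms (0.61) and Rfc5 (0.54). Ccne1, which was called in each organ's own fit but not in bone marrow in this fit of 36 libraries, had a difference of 0.65 with an interval of -0.26 to 1.55. With the mouse left out of the model 0 genes passed, so this count rests on the block by mouse. It was 20 without crisis replicate 1 of spleen and 0 or 1 without crisis replicate 2 of spleen, crisis replicate 1 of bone marrow, any young WT library of bone marrow, or young WT replicate 2 or 3 of spleen. Within crisis, spleen SMP exceeded bone marrow SMP in 18 genes (17.7% of all genes), led by Ccne1 (1.19) and Rrm2 (0.87). That count was 3 without crisis replicate 2 of spleen, 11 without crisis replicate 3 of bone marrow, and 10 without the block by mouse. In young WT the organs differed in 0 genes (2.32% of all genes), with 4 at an unadjusted p under 0.05. The young WT mice that gave spleen SMP were other mice than those that gave bone marrow SMP, so organ and mouse cannot be told apart there. The same limit holds for the young WT part of the difference in crisis effect.

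The comparisons with crisis share the crisis libraries, so remission is given by its own levels. In whole spleen the 3 remission libraries split widely. Rrm2 was at 5554 in mouse 2726 and at 67062 and 71742 in the other 2 mice, against 51594 to 89459 in crisis and 14637 in the 1 older WT library. The same order held for Mcm5 (5760 against 37761 and 38138) and Ccne2 (1208 against 14459 and 12977). Mouse 2726 lay below all young WT libraries in these 3 genes, and the other 2 remission mice lay within the crisis range. Marker sums split the same way: the erythroid sum was 2557340 in mouse 2726 and 10057317 and 14651236 in the other 2, the B cell sum 157084 against 25709 and 36155, and the T and NK cell sum 40419 against 5739 and 7540. Their part in the replication genes was not tested. The unassigned library had 34 of the 35 genes above all young WT libraries, as in 33.0% of all genes.

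Remission against crisis called 0 of the 35 genes in whole spleen (0.0% of all genes), with 0 at an unadjusted p under 0.05 and a median of -0.95. Without mice 2726 and 27265 the median was -0.01 and again 0 were called. Against the older WT library 0 genes were called with all mice (0.0% of all genes, 0 at an unadjusted p under 0.05, median 0.98). The count of 0 did not hold without mouse 2726, where the median was 1.98. Mouse 27265 has no assigned whole spleen library, so leaving out both mice gives the same fit. That comparison has 1 older WT library, which is assumed to vary like the other groups.

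In whole bone marrow remission differed from crisis in 0 genes (0.0% of all genes), with 1 at an unadjusted p under 0.05 and a median of -0.06. Without crisis replicate 1 Pold1 was higher in remission (0.86). In bone marrow MEP (0.00693% of all genes) and spleen MEP (0.0%) 0 genes were called, with 1 and 0 at an unadjusted p under 0.05. Ccne1 was lower in remission in SMP of bone marrow (-0.94, adjusted p = 0.036; 0.419% of all genes were called lower), at 634, 708 and 975 against 1240, 1770 and 1314 in crisis. It was not called without mice 2726 and 27265, nor without crisis replicate 2 or 3 or remission replicate 1 or 2, and 5 genes were lower without crisis replicate 1. In spleen SMP 0 genes were called (0.0% of all genes), with 12 at an unadjusted p under 0.05 and a median of -0.35. Without crisis replicate 1 it was 4: Cdt1, Orc6, Rrm1 and Tk1. Ccne1 there was at 971, 3973 and 1123 in remission.

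Against older WT, remission called 0 genes in whole bone marrow, bone marrow MEP, spleen MEP and bone marrow SMP (0.0% of all genes in each) and in spleen SMP (0.0129%), and 0 of the 35 had an unadjusted p under 0.05 in these 5 populations. The medians were 0.02, 0.10, 0.11, 0.08 and 0.33. Without mice 2726 and 27265 again 0 were called in the first 4 of these, with medians of 0.42, 0.31, 0.11 and 0.11, and neither mouse gave spleen SMP. Remission and crisis mice also differ in age, so state and age cannot be told apart.

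Across the 6 populations, the order of the levels changed in crisis. The highest mean was in whole spleen for 22 genes, in spleen MEP for 12 and in bone marrow SMP for Rfc2, and the lowest in bone marrow SMP for 29 genes and in whole bone marrow for 6. Per kilobase, Pcna remained the most abundant in all 6 crisis populations (38745 in whole spleen, 12178 in bone marrow SMP), with Rrm2 the second in whole spleen (32321).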

How the data were processed

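Poly(A) RNA was sequenced from whole tissue, MEP and SMP of bone marrow and spleen. Per the submitters' processing notes, the tools were Bowtie2 2.2.0, RSEM and DESeq2, with build GRCm38. The authors deposited normalised counts, a signal that is not whole numbers, and a table of regularised log2 values, used as an alternative. Because the deposited signal is not raw counts, no count model was used. Libraries were rescaled by median ratios within a population (log2 factors -0.904 to 0.474 over crisis and young WT). In the fit of 36 libraries they were rescaled over all 36, across the populations. Genes with a mean under 10 were left out, and log2(value + 1) was tested with limma 3.58.1 (R 4.3.3, trend, robust, Benjamini-Hochberg over all genes, threshold 0.05). All fold changes are on the log2(value + 1) scale. Levels printed are on 1 scale over the 63 assigned libraries.

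Crisis was tested against young WT on the 6 libraries of a population, remission in a fit of all its groups, and populations in a fit of 36 libraries and 15928 genes with the mouse as a random block (consensus correlation 0.227). The pairing comes from the mouse names in the labels: deviations from group means correlated with a median r of 0.146 over 71 pairs of libraries of 1 mouse and -0.015 over 469 pairs of different mice. Genes named were the called gene of largest change per role and those against the main direction. Orc1, Mcm5, Pcna and Ccne1 elsewhere, and genes of the mitosis and G1 lists, were chosen after their values were seen. The members and lists were chosen with earlier results of these data known. The tests of crisis against young WT in whole bone marrow, whole spleen and spleen SMP were tried on simulated data. The simulated data had independent noise and few changed genes, unlike whole spleen in crisis. The fit of 36 libraries was not tried in this way.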

Additional observations from a re-analysis of the deposited data

Results flagged for a closer look

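The crisis effect differed between spleen and bone marrow, by a test of the difference itself (limma, adjusted over all genes), for 33 of the 35 genes in whole tissue (12.1% of all genes), and for 1 without rescaling. The largest log2 differences were those of Uhrf1 (1.26), Rfc3 (1.14), Rfc4 (1.06), Pole (1.04) and Gins3 (1.04), each higher in spleen. In SMP the effect differed for 4 genes, Rfc4 (1.07), Rrm1 (0.67), Tyms (0.61) and Rfc5 (0.54), again higher in spleen (4.43% of all genes). That count was 0 without the block by mouse, 0 without rescaling, and 0 or 1 with any of 7 single libraries left out. Its young WT libraries came from other mice in spleen than in bone marrow, so organ and mouse cannot be told apart in that part.

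The whole spleen library of mouse 27265, which carries contradictory labels and enters no comparison, had 34 of the 35 genes above all young WT whole spleen libraries, as in 33.0% of all genes with a symbol. Rrm2 was at 53525, Mcm6 at 31311 and Orc1 at 4880 in it, and Pold1 was the exception.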

How the results depend on the processing

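With 3 libraries or fewer per group, single libraries set many counts. None of the 15 single-gene changes followed under the alternatives reversed, some genes being followed in more than 1 comparison. Each was the called gene of largest change in its role and comparison in these same libraries, so a kept sign is little support. Single libraries left out aside, 160 of 185 alternatives still called the gene in the same direction. With 1 library left out, each gene followed in spleen SMP kept its call in 2 of 6 fits. Orc6 in whole bone marrow kept it in 0 of 6. The genes called in whole bone marrow, however, turned from 2 higher (Orc1, Orc6) to 1 lower (Pold1) in the fit of all groups. Counts below are of the 35 genes and are given without the share of all genes called.

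Without rescaling, the crisis effect differed between organs in 1 gene in whole tissue and 0 in SMP. MEP differed from SMP in 11 genes in young WT spleen (10 higher, 1 lower), 18 in crisis bone marrow and 6 in crisis spleen. Spleen differed from bone marrow in 0 genes in young WT whole tissue and 1 in crisis SMP. Crisis differed from young WT in 0 genes in whole bone marrow and 2 in spleen SMP, and remission from crisis in 0 in bone marrow SMP. The median of all genes then moved by over 0.1, to -0.94 for MEP against SMP in young WT spleen (the 35 genes 0.40) and to -0.63 for the effect difference in SMP.

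Without the replicate block by mouse, the effect difference in SMP held in 0 genes, spleen against bone marrow in 3 genes of young WT whole tissue and in 10 of crisis SMP. No other count left the range of 1.5 times. Without the filter on low values the effect difference in SMP was 1, and spleen against bone marrow in young WT whole tissue 3.

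For crisis against young WT, the fit of all groups called 18 genes in SMP of spleen, 3 in SMP of bone marrow, 1 (lower) in whole bone marrow and 0 in whole spleen. Without mice 2726 and 27265 it called 2 in SMP of bone marrow. The fit of 36 libraries called 25 in spleen SMP but 0 in bone marrow SMP. Crisis against young and older WT in 1 group, with mouse 27265 left out, gave 23 in spleen SMP and 3 in bone marrow SMP. With no trend and no robust step there were 0 in whole bone marrow and 0 in SMP of either organ. In 15 libraries the low values were built on 1 smallest step (single-step libraries), and in the others on several. They were unevenly spread over groups: in spleen MEP young WT replicates 1 and 2 were such libraries and no crisis library was. With the single-step library as a covariate there were 0 in whole bone marrow and 3 in bone marrow SMP. Without mice 2726 and 27265, the count moved for remission against older WT in whole spleen and for remission against crisis in bone marrow SMP. The causes were not tested.

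With any 1 library left out, the effect difference ranged from 26 to 33 in whole tissue and from 0 to 20 in SMP. MEP against SMP ranged from 31 to 31 and 32 to 34 in young WT bone marrow and spleen, and from 31 to 33 and 30 to 32 in crisis. Spleen against bone marrow ranged from 2 to 7 in young WT whole tissue, 32 to 34 in crisis whole tissue and 3 to 24 in crisis SMP. Crisis against young WT ranged from 0 to 3 in whole bone marrow, 31 to 33 in whole spleen, 0 to 1 in each MEP population, 0 to 16 in spleen SMP and 0 to 5 in bone marrow SMP. Remission against crisis ranged from 0 to 1 in whole bone marrow, 0 to 4 in spleen SMP and 0 to 5 in bone marrow SMP. The count of remission against older WT in whole spleen depended on mouse 2726.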

Other observations

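Genes of G1 and cell cycle inhibition, a list of 14, moved in both directions in whole spleen in crisis: 7 were higher and 3 lower in the limma fit. Cdkn1a, the inhibitor p21, had the largest change, from 147 to 285 in young WT to 1416 to 2990 in crisis (log2 difference 3.18, adjusted p = 0.00014). Ccnd1 and Ccnd2, D-type cyclins that act in G1, were lower (-2.37 and -1.49), as was Rbl2 (-0.96). Rb1 and E2f4 were among the genes that were higher (1.34 and 0.99). In whole tissue, more cells of a type and more RNA per cell cannot be told apart for these genes either. Cdkn1a was higher in whole bone marrow as well, where it ran from 635 to 844 in young WT and from 2220 to 3675 in crisis (1.86, adjusted p = 0.00645).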
